A study of Mus musculus with 6 samples.

Results

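The genes described here are 10 genes of iron handling and of the hepcidin axis: Hamp, Hamp2, Bmp6, Hfe, Tfr2, Tfrc, Trf, Fth1, Ftl1 and Slc40a1. They were chosen by symbol, each matched to its Ensembl gene in the count table, and all 10 were found among the 49671 genes listed. Liver RNA was sequenced from 6 male C57BL/6J mice, 3 labelled WT and 3 labelled KO, to ask how loss of hepatocyte SHMT2, a mitochondrial enzyme that converts serine to glycine, changes the liver under a steatohepatitis diet. The WT mice are read here as the SHMT2 fl/fl controls of the study, which carry the floxed alleles without Cre. The KO mice are its SHMT2 HKO mice, in which exons 3–12 are removed by a Cre driven from the albumin promoter, used to target hepatocytes. From protein levels in whole liver the paper proposes that non-parenchymal cells keep SHMT2. Both groups carried the floxed alleles, were put on the AMLN diet, which supplies much fat, fructose and cholesterol, at an age of 4 weeks, stayed on it for 18 weeks, and were 22 weeks old at harvest.

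Hepcidin, the peptide encoded by Hamp, is secreted by hepatocytes and binds ferroportin (Slc40a1), the only known cellular iron exporter, which is then degraded. Its transcription is raised through SMAD proteins when endothelial BMP6 and BMP2 act on hepatocyte receptors, an arm tuned by HFE, transferrin receptor 2 and hemojuvelin and restrained by the protease TMPRSS6, and through STAT3 when interleukin 6 acts on the same cells. A separate, post-transcriptional system uses the iron regulatory proteins, which bind hairpins called iron-responsive elements. Binding at the 5′ end of ferritin and ferroportin messages blocks translation, and binding at the 3′ end of the Tfrc message protects it from decay.

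The 10 genes fell into 2 that passed the test and 8 that did not. Tfr2, the iron-sensing transferrin receptor of hepatocytes, was 1.87-fold higher in SHMT2 HKO livers, and Bmp6, the endothelial ligand that induces hepcidin, stood at 0.510 times its SHMT2 fl/fl level. Hamp itself had a log2 fold change of -0.07 with a 95% confidence interval from -1.04 to 0.90, so a change of about 1 log2 unit in either direction was within its error. All 10 genes had enough reads to be tested. Calls were made at an adjusted p under 0.05 by the quasi-likelihood test of edgeR, adjusted by Benjamini-Hochberg across 16089 genes, and at that threshold 29.0% of all genes tested were called, 12.5% higher and 16.5% lower in SHMT2 HKO livers. The 2 of 10 called here, 1 in each direction, make 20%, a share not above that of all genes, and without SHMT2 fl/fl mouse 1 or mouse 2 the count was 0 of 10.

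Gene counts summed to between 23090837 and 34089722 per library, and 3 counts, taken as the floor, correspond to 0.0880 to 0.130 CPM, the count scaled to library size. CPM of genes given here use library sizes after TMM scaling, a correction for composition whose factors were 1.13 to 1.21 in control and 0.802 to 0.984 in knockout libraries. The targeted gene Shmt2 stood at 94.6, 109.0 and 93.9 CPM in SHMT2 fl/fl mice 1, 2 and 3 and at 24.9, 28.3 and 19.3 CPM in SHMT2 HKO mice 1, 2 and 3, which did not overlap (two-sided exact permutation test, p = 0.1, which is the lowest value 3 against 3 allows). Hepatocyte markers were abundant in every library, with a summed level of 51929 to 64531 CPM in control and 64270 to 97376 CPM in knockout livers, and 2 of 8 were called higher. Summed levels of cholangiocyte markers were 951 to 1181 against 128 to 245 CPM (5 of 5 called lower), those of macrophage or monocyte markers 565 to 761 against 188 to 377 CPM (5 of 8 lower), and those of stellate cell or fibroblast markers 1272 to 1342 against 354 to 867 CPM (4 of 8 called lower and 1 higher). Kupffer cell markers summed to 58.6 to 170 against 248 to 350 CPM (4 of 6 higher), sinusoidal endothelial markers to 278 to 321 against 330 to 431 CPM (3 of 8 higher), and lymphocyte markers to 13.1 to 17.8 against 3.18 to 4.41 CPM (3 of 6 lower). Erythroid markers summed to 59.9 to 136 against 130 to 166 CPM, with 0 of 7 called, and no marker of these lists was at 0 in all 6 libraries. Their part in the results below was not tested. In bulk tissue, fewer cells of a type and less RNA per cell cannot be told apart. The mice are separate animals, so p-values measure the spread between mice.

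Hamp and Hamp2 are neighbouring genes on the minus strand of chromosome 7 (GRCm38). Hamp (ENSMUSG00000050440) lies at chr7:30942368-30944032 and Hamp2 (ENSMUSG00000056978), the mouse paralog of less settled function, at chr7:30922372-30924681. The promoter stretches next to their RefSeq start sites (GRCm38.p6, minus strand, chr7:30944030-30944179 for Hamp and chr7:30924179-30924328 for Hamp2) are shown because both arms of hepcidin control act there. They are aligned with each other, and the Hamp2 stretch runs a few bases past its start. Capitals mark GGCGCC, the core of the BMP-responsive element, and TTCNNGGAA, a STAT site, each searched on both strands and not overlapping each other.
Hamp: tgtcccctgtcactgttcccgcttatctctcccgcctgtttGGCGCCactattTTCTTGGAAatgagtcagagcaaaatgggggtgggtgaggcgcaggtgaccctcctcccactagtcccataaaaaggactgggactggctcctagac
Hamp2: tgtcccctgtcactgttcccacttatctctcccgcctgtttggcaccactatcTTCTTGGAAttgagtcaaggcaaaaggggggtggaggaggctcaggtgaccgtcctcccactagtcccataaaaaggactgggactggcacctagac
The 2 stretches of 150 bases differed at 12 positions, and over the whole 300-base promoter windows 276 of 297 aligned bases were identical (92.9%). One substitution, G45A, counted from 1 at the 5′ end of the printed stretch with the Hamp base first, falls within the GGCGCC core of Hamp, and the Hamp2 window held no match to it on either strand. Both genes held the STAT site letters in the same form. Of 32851 mouse promoter windows of this length, 11.9% held GGCGCC and 4.81% held TTCNNGGAA, so neither is rare. Of the other genes, Tfrc held GGCGCC in 1 of its 2 windows, and no other window of Tfr2, Hfe, Bmp6, Fth1 or Ftl1 held either motif. Trf and Slc40a1 were not searched.

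Hamp did not differ detectably between the genotypes, and it varied strongly among mice of the same genotype. It stood at 302, 262 and 528 CPM in SHMT2 fl/fl mice 1, 2 and 3 and at 390, 489 and 161 CPM in SHMT2 HKO mice 1, 2 and 3. The lowest and the second highest values were both SHMT2 HKO mice, and the groups overlapped throughout. Group means were 364 ± 143 and 347 ± 169 CPM (SD, n = 3 mice each), a coefficient of variation of 39.3% and 48.6%. The log2 fold change was -0.07 (SE 0.42, adjusted p = 0.915). It was 0.30 without SHMT2 fl/fl mouse 3, the highest, and 0.25 without SHMT2 HKO mouse 3, the lowest, so its sign rested on single mice. It was -0.54 with library size alone and -1.06 with ERCC scaling (adjusted p = 0.0736), settings that lowered the median gene too.

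Hamp2 was far less abundant and had the widest spread of the 10 genes. It stood at 4.99, 11.1 and 8.95 CPM in SHMT2 fl/fl and at 12.9, 64.9 and 5.83 CPM in SHMT2 HKO mice. SHMT2 HKO mouse 2 was above every other mouse, while SHMT2 HKO mouse 3 lay within the SHMT2 fl/fl range. The log2 fold change of 1.74 (SE 0.84, 95% confidence interval -0.25 to 3.73) did not pass the test (adjusted p = 0.167) and was 0.17 without SHMT2 HKO mouse 2. The per-length ratio of Hamp to Hamp2 was 67.9 ± 29.6 in control and 31.0 ± 17.7 in knockout livers (SD, n = 3 each, exact permutation test, two-sided, p = 0.3). The Hamp and Hamp2 transcripts, of 410 and 437 bases, share 94.6% of aligned bases with a longest shared run of 87 bases. That run is shorter than the read length the paper gives, before trimming. How reads were assigned between the 2 genes was not tested.

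**Figure D1:**
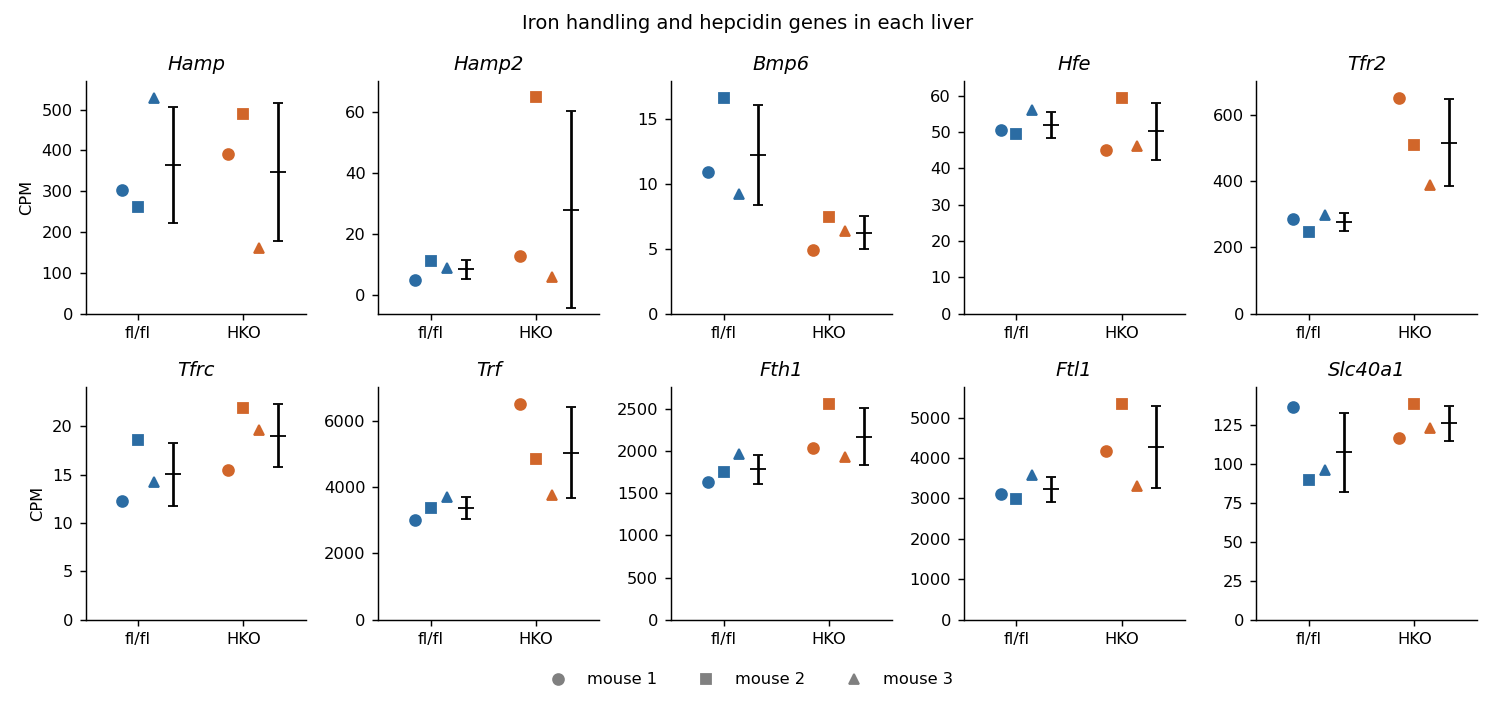
Level of each of the 10 genes in CPM (linear axes) for 3 SHMT2 fl/fl (blue) and 3 SHMT2 HKO (orange) livers, with the shape giving the mouse number within its group and the black mark and bar the mean and SD. Tfr2, Trf and Bmp6 are the 3 genes whose groups do not overlap, and the Hamp2 spread in SHMT2 HKO livers comes from mouse 2 at 64.9 CPM.

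The signals upstream of hepcidin did not move one way. Bmp6 (ENSMUSG00000039004, chr13:38345107-38500302, plus strand), the ligand that sinusoidal endothelial cells release when iron is high, fell. It stood at 10.9, 16.6 and 9.26 CPM in SHMT2 fl/fl and at 4.88, 7.44 and 6.42 CPM in SHMT2 HKO mice. Every SHMT2 HKO value was under every SHMT2 fl/fl value. Means were 12.3 ± 3.86 and 6.25 ± 1.29 CPM (SD, n = 3 each), a log2 fold change of -0.97 (SE 0.26, 95% confidence interval -1.57 to -0.38, adjusted p = 0.0251). The fold change was of similar size without SHMT2 fl/fl mouse 1 (-1.05, adjusted p = 0.0575) and smaller without SHMT2 fl/fl mouse 2 (-0.70, adjusted p = 0.0859), and both left the call. It kept its sign and passed the threshold under all 3 other scalings. Of the 8 endothelial markers, 3 were called higher and 0 lower, with Clec4g furthest up (1.93) and Pecam1 (-0.24) and Stab1 (-0.35) below 0 but not called. Bmp6 per 100 CPM of their summed level was 4.17 ± 1.56 CPM in control and 1.62 ± 0.228 CPM in knockout livers (SD, n = 3 each, exact permutation test, two-sided, p = 0.1). Within that sum the mean of Clec4g went from 17.9 to 68.7 CPM, so the ratio also follows single markers and not Bmp6 alone. The part of endothelial cells in the Bmp6 difference was not tested. Exons of Bmp6 share 224 bases with Txndc5 on the opposite strand, whose 36254 summed counts exceed those of Bmp6 and whose log2 fold change was 0.24 (adjusted p = 0.209). Since the use of strand in counting is not given in the sources used here, reads there cannot be told apart.

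Bmp2, the other endothelial ligand of hepcidin, was at 16.0, 10.8 and 9.32 CPM in SHMT2 fl/fl and at 16.1, 20.5 and 21.1 CPM in SHMT2 HKO mice. These values barely separate, and the log2 fold change of 0.67 missed the threshold (SE 0.22, adjusted p = 0.0509). It passed with DESeq2 (adjusted p = 0.0203) and without SHMT2 fl/fl mouse 1 (0.0208), and it was -0.01 under scaling to the ERCC RNAs, spike-ins added to each sample.

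Hfe (ENSMUSG00000006611, chr13:23702034-23710854, minus strand), the MHC-like protein lost in the common form of hereditary haemochromatosis, was nearly equal in the groups. It stood at 50.5, 49.4 and 56.0 CPM in SHMT2 fl/fl and at 45.1, 59.3 and 46.3 CPM in SHMT2 HKO mice, which overlapped. The log2 fold change was -0.05 (SE 0.14, 95% confidence interval -0.36 to 0.26, adjusted p = 0.809), and its sign turned without SHMT2 fl/fl mouse 3 (0.0062) or SHMT2 HKO mouse 1 (0.02). It was -0.48 (adjusted p = 0.0312) with library size alone, a setting that lowered all genes, and -0.09 relative to the median gene there.

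Tfr2 (ENSMUSG00000029716, chr5:137569840-137587481, plus strand), which senses iron-loaded transferrin on the hepatocyte surface, rose. It stood at 286, 247 and 297 CPM in SHMT2 fl/fl and at 651, 509 and 390 CPM in SHMT2 HKO mice. The lowest SHMT2 HKO value lay above the highest SHMT2 fl/fl value, and the SHMT2 HKO mice were more spread. Means were 277 ± 26.2 and 517 ± 131 CPM (SD, n = 3 each), a log2 fold change of 0.90 (SE 0.20, 95% confidence interval 0.43 to 1.37, adjusted p = 0.0139). The call was lost without SHMT2 fl/fl mouse 1 (adjusted p = 0.0509) or mouse 2 (0.0645), at log2 fold changes of 0.93 and 0.82. It was also lost with library size alone (0.45, adjusted p = 0.0568) and with ERCC scaling (0.06, adjusted p = 0.923). The summed level of hepatocyte markers was also higher in SHMT2 HKO mice 1 and 2 (95581 and 97376 CPM) than in any SHMT2 fl/fl mouse. Most of that sum was Alb (57321 and 65656 CPM in these mice), which was not called (0.56, adjusted p = 0.132). Of the 8 markers, 2 were called higher.

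Other components of the hepatocyte receptor complex are Hfe2, which encodes the co-receptor hemojuvelin, and Tmprss6, whose product cleaves hemojuvelin and so lowers hepcidin. Hfe2 was at 118, 114 and 109 CPM in SHMT2 fl/fl and at 132, 193 and 141 CPM in SHMT2 HKO mice, with no overlap, and its log2 fold change of 0.45 did not pass (SE 0.16, adjusted p = 0.0699). Tmprss6 was at 330, 355 and 425 CPM in SHMT2 fl/fl and at 518, 631 and 548 CPM in SHMT2 HKO mice and rose (log2 fold change 0.61, SE 0.16, adjusted p = 0.0247), although it was not called with library size alone (0.19) and its sign turned under ERCC scaling (-0.11). The Tmprss6 call was lost without SHMT2 fl/fl mouse 1 (adjusted p = 0.10), SHMT2 fl/fl mouse 2 (0.102) or SHMT2 HKO mouse 2 (0.0757).

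Among targets of BMP and SMAD signalling other than hepcidin, Id1 and Smad7 fell in SHMT2 HKO livers. Not called were Id2 (log2 fold change 0.06, adjusted p = 0.856), Id3 (-0.56, adjusted p = 0.156), Id4 (-0.25, adjusted p = 0.524) and Smad6 (-0.77, adjusted p = 0.0506). Id1, a transcriptional inhibitor that is a standard readout of BMP signalling, was at 17.9, 27.7 and 24.6 CPM in SHMT2 fl/fl and at 6.45, 13.8 and 10.9 CPM in SHMT2 HKO mice. Smad7, the inhibitory SMAD that dampens the same pathway, was at 23.9, 22.2 and 26.6 CPM in SHMT2 fl/fl and at 9.68, 9.52 and 16.5 CPM in SHMT2 HKO mice. Neither gene overlapped between the groups, and both fell, by 1.17 (SE 0.28, adjusted p = 0.0170) and 1.02 (SE 0.22, adjusted p = 0.0117) on the log2 scale. The Id1 call was lost without SHMT2 fl/fl mouse 2 (adjusted p = 0.0636) or mouse 3 (0.0617), and the Smad7 call without SHMT2 fl/fl mouse 3 (0.0526). Atoh8, a transcription factor induced by BMP6, was at 36.4, 28.7 and 42.6 against 15.2, 30.0 and 20.2 CPM, which overlapped, with a log2 fold change of -0.72 that did not pass (adjusted p = 0.0633). Atoh8 did pass with DESeq2 (adjusted p = 0.0333) and without SHMT2 HKO mouse 2 (-1.02, adjusted p = 0.0226).

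Of 22 genes tested in the BMP and SMAD arm, Bmp6 included, 5 were called lower and 1 higher, with a median log2 fold change of -0.18 beside 0.03 over all genes. The 6 calls make 27.3% of the list, near the 29.0% of all genes called. These were Fstl3 (a follistatin-like ligand trap, -2.21, adjusted p = 0.00633), Id1, Smad7, Bmp6, Smad5 (a receptor-activated SMAD, -0.37, adjusted p = 0.0460) and Tmprss6. With library size alone the counts were 9 lower and 0 higher, and with ERCC scaling 6 lower and 0 higher. Leaving out a mouse gave 2 to 7 lower and 0 to 3 higher, with 2 lower without SHMT2 fl/fl mouse 2 or 3 and 3 lower without SHMT2 fl/fl mouse 1. The receptors Bmpr1a, Bmpr2 and Acvr1 and the mediators Smad1 and Smad4 had log2 fold changes between -0.26 and -0.06 and were not called. The receptor Acvr2a (0.37, adjusted p = 0.109) and the mediator Smad9 (0.30, adjusted p = 0.552) lay above 0 and were not called either. Erfe, the erythroid hormone that traps BMP ligands, had too few reads to test, at 0.150 to 0.261 CPM in control and 0 to 0.118 CPM in knockout livers. SMAD targets are shared by several liver cell types, and the fibroblast and cholangiocyte markers given above were lower in the same livers. Their part in these changes was not tested.

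**Figure D2:**
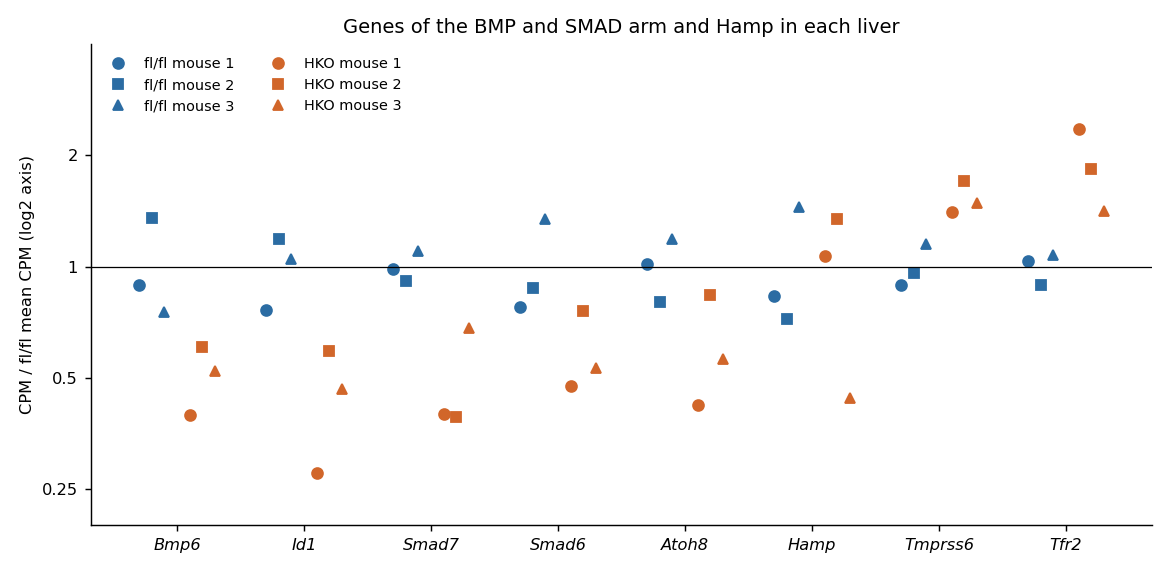
CPM of 8 genes of the BMP and SMAD arm in each mouse, divided by the SHMT2 fl/fl mean of the gene, on a log2 axis where 1 (horizontal line) is that mean. All 3 SHMT2 HKO mice lie under the SHMT2 fl/fl mice for Bmp6, Id1, Smad7 and Smad6 and above them for Tmprss6 and Tfr2, while the Hamp points of the groups are interleaved.

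In the inflammatory arm, 2 of 16 genes tested were called higher and 0 lower (median log2 fold change 0.25). This share of 12.5% is that of all genes called higher, and 29.0% of all genes were called in either direction. With library size alone 1 was called in each direction, and with ERCC scaling 0 were called higher and 1 lower. Crp, an acute-phase protein, had 213 ± 22 CPM in controls and 451 ± 89.0 CPM in knockouts (SD, n = 3 each) and rose by a log2 fold change of 1.09 (adjusted p = 0.00463), which was 0.28 and not called with ERCC scaling. Creb3l3, which encodes the membrane-bound factor CREBH that can act on the Hamp promoter, rose from 289 ± 32.6 to 426 ± 9.83 CPM (0.56, adjusted p = 0.0217), and its call was lost without SHMT2 fl/fl mouse 1, 2 or 3 or SHMT2 HKO mouse 2 (adjusted p up to 0.0887) and its sign turned under ERCC scaling (-0.15). Il6 had 1 read in all 6 libraries together. Its receptor Il6ra (0.26, adjusted p = 0.369), the transducer Stat3 (0.28, adjusted p = 0.402) and the STAT3 target Socs3 (-0.0048, adjusted p = 0.993) were not called. SHMT2 HKO mouse 1 stood apart in some acute-phase messages, chosen here after their values were seen, and not in others. Saa1 was at 3405 CPM there, against 98.5 to 383 CPM in the SHMT2 fl/fl mice. It was at 260 and 174 CPM in SHMT2 HKO mice 2 and 3. Crp was at 516 CPM in SHMT2 HKO mouse 1 and at 488 CPM in SHMT2 HKO mouse 2. Lcn2 was at 174 CPM in SHMT2 HKO mouse 1, within the SHMT2 fl/fl range of 114 to 222 CPM. Hamp in that mouse, at 390 CPM, lay between the other SHMT2 HKO mice.

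Iron export is carried by Slc40a1 (ENSMUSG00000025993, chr1:45908068-45926523, minus strand), which is expressed in both macrophages and hepatocytes. It stood at 137, 90.1 and 96.2 CPM in SHMT2 fl/fl and at 117, 138 and 123 CPM in SHMT2 HKO mice, which overlapped because of SHMT2 fl/fl mouse 1. The log2 fold change of 0.23 (SE 0.18, 95% confidence interval -0.17 to 0.63) was not called (adjusted p = 0.367), was 0.44 (adjusted p = 0.0826) without that mouse, and turned to -0.20 with library size alone and -0.51 with ERCC scaling. Of the oxidases that load exported iron onto transferrin, Cp (ceruloplasmin) was not called (0.13, adjusted p = 0.590), whereas Heph (hephaestin) fell (log2 fold change -1.65 with an adjusted p of 0.00170), with 5.39 ± 0.491 CPM in control and 1.71 ± 0.0518 CPM in knockout livers, and was called under every alternative run. Markers of several cell types differed in the same livers, and their part in the Heph difference was not tested.

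Trf (ENSMUSG00000032554, chr9:103204001-103230444, minus strand) encodes transferrin, the plasma iron carrier secreted by hepatocytes. It stood at 3021, 3359 and 3686 CPM in SHMT2 fl/fl and at 6490, 4856 and 3756 CPM in SHMT2 HKO mice. The groups did not overlap, but SHMT2 HKO mouse 3 was only just above SHMT2 fl/fl mouse 3. The log2 fold change of 0.59 (SE 0.24, 95% confidence interval 0.04 to 1.13) did not pass (adjusted p = 0.0978). It passed with DESeq2 (adjusted p = 0.0195) and without SHMT2 HKO mouse 3 (0.73, adjusted p = 0.0197), and it was -0.25 under ERCC scaling. Trf, Tfr2 and Bmp6 were the 3 of 10 genes (30.0%) whose groups did not overlap, against 46.9% of all genes tested.

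Tfrc (ENSMUSG00000022797, chr16:32608920-32632794, plus strand), the transferrin receptor through which most cells import iron, had the lowest level per kilobase of the 10 genes in SHMT2 fl/fl livers, at a range that overlapped that of Bmp6. It stood at 12.3, 18.6 and 14.2 CPM in SHMT2 fl/fl and at 15.5, 21.9 and 19.6 CPM in SHMT2 HKO mice, with SHMT2 HKO mice 2 and 3 above all controls and SHMT2 HKO mouse 1 within their range. The log2 fold change of 0.34 (SE 0.19, 95% confidence interval -0.11 to 0.79) was not called (adjusted p = 0.228) and was -0.08 with library size alone and -0.33 with ERCC scaling.

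Ferritin stores iron in a shell of heavy chains (Fth1, ENSMUSG00000024661, chr19:9980598-9985098, plus strand), which oxidise iron, and light chains (Ftl1, ENSMUSG00000050708, chr7:45457944-45459884, minus strand). Fth1 stood at 1630, 1753 and 1962 CPM in SHMT2 fl/fl and at 2036, 2551 and 1926 CPM in SHMT2 HKO mice. Ftl1 stood at 3101, 2984 and 3583 CPM in SHMT2 fl/fl and at 4164, 5326 and 3318 CPM in SHMT2 HKO mice. In both genes SHMT2 HKO mice 1 and 2 lay above all controls and SHMT2 HKO mouse 3 lay within their range, so the groups overlapped. Log2 fold changes were 0.29 (SE 0.18, adjusted p = 0.283) and 0.41 (SE 0.22, adjusted p = 0.204), which turned to -0.15 and -0.04 with library size alone and to -0.47 and -0.41 with ERCC scaling. The per-length ratio of Fth1 to Ftl1 was 0.214 ± 0.0121 in control and 0.199 ± 0.0216 in knockout livers (SD, n = 3 each, exact permutation test, two-sided, p = 0.3). The 14 ferritin-like copies listed in the table held 0.169% of the reads of Fth1 and Ftl1 together, and reads shared with them are uncertain.

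Of the 10 messages, 4 are known targets of the iron regulatory proteins, and their hairpins are shown because this control acts in part on translation, which read counts do not measure. The search required a loop CAGTGN closed by a stem of 5 base pairs, G-T pairs allowed, with a C bulge before it, in the untranslated regions of GENCODE M21 transcripts (GRCm38). Capitals mark the loop. The elements of Fth1 (chr19:9982732-9982761), Ftl1 (chr7:45459778-45459807) and Slc40a1 (chr1:45925464-45925493) are in the 5′ untranslated region, and the 4 found in Tfrc, of which the first is shown (chr16:32631219-32631248), are in the 3′ untranslated region.
Fth1: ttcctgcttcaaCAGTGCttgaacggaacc
Ftl1: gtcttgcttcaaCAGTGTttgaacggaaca
Slc40a1: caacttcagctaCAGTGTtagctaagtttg
Tfrc: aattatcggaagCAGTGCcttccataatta
A match was found in the 5′ untranslated region of 31 of 20580 genes (0.151%) and in the 3′ untranslated region of 129 of 20962 genes (0.615%). None of these 4 messages was called by edgeR, limma-voom or DESeq2, and 0 of the 4 had an unadjusted p under 0.05 with edgeR.

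The iron regulatory proteins themselves are encoded by Aco1 and Ireb2. Aco1, whose product is a cytosolic aconitase when it holds an iron-sulfur cluster, was at 160, 178 and 178 CPM in SHMT2 fl/fl and at 247, 338 and 279 CPM in SHMT2 HKO mice and rose (log2 fold change 0.75, SE 0.15, adjusted p = 0.00959), a call lost with library size alone (0.32) and with ERCC scaling (0.03). Ireb2 was at 56.1, 39.8 and 49.0 against 73.0, 59.6 and 74.2 CPM and rose (0.51, adjusted p = 0.0399), but that call was lost without SHMT2 fl/fl mouse 2 or 3 or SHMT2 HKO mouse 1 or 3 (adjusted p up to 0.134) and its sign turned under ERCC scaling (-0.19). Fbxl5, the iron-sensing subunit that marks IREB2 for degradation (-0.15, adjusted p = 0.342), and Ncoa4, the receptor that delivers ferritin to lysosomes (0.53, adjusted p = 0.10), were not called, although Ncoa4 passed without SHMT2 HKO mouse 1 (0.73, adjusted p = 0.0104). Of 9 genes tested in this list, 2 were called higher and 0 lower (median 0.43). The 22.2% called stands beside 29.0% of all genes called in either direction and 12.5% called higher. With library size alone 0 were higher and 1 lower, and with ERCC scaling 0 were called in either direction.

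**Figure D3:**
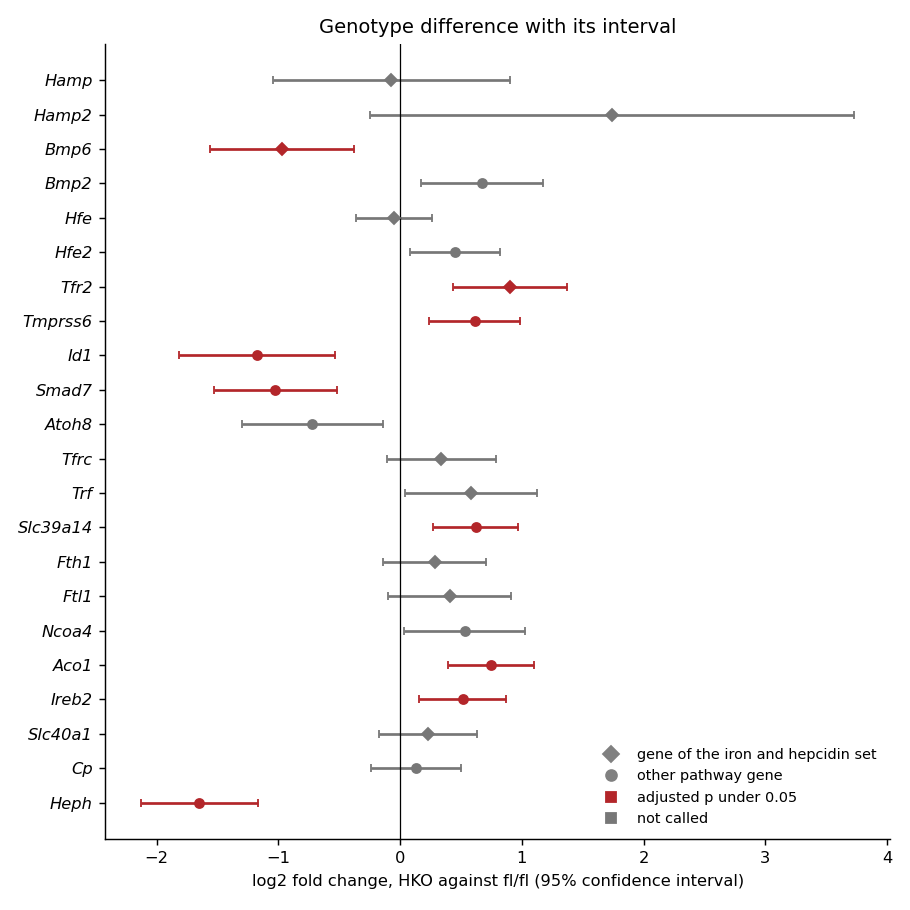
Log2 fold change of SHMT2 HKO against SHMT2 fl/fl livers with 95% confidence intervals (bars) for the 10 genes (diamonds) and other genes of the pathway (circles), with calls at an adjusted p under 0.05 in red. The intervals of Bmp6 (-1.57 to -0.38) and Tfr2 (0.43 to 1.37) lie away from 0, and that of Hamp2 (-0.25 to 3.73) is the widest.

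Among genes of iron and heme-protein transport, 5 of 21 tested were called higher and 3 lower (median log2 fold change 0.24), or 38.1% called beside 29.0% of all genes. The counts were 2 higher and 4 lower with library size alone and 1 higher and 3 lower with ERCC scaling. Cd163, the macrophage receptor for haptoglobin-bound haemoglobin, was at 0.196, 0.564 and 0.574 CPM in SHMT2 fl/fl and at 14.7, 24.2 and 7.01 CPM in SHMT2 HKO mice, a 34.9-fold difference (log2 fold change 5.12, SE 0.57, adjusted p = 0.00132). Kupffer cell markers were higher and macrophage or monocyte markers lower in the same livers, and Slc11a1, the phagosomal metal transporter, fell (-0.78, adjusted p = 0.0271), a call lost without SHMT2 fl/fl mouse 1 or 3 or SHMT2 HKO mouse 2 (adjusted p up to 0.102). The part of these cells in either change was not tested. Timd2, a mouse receptor for heavy-chain ferritin, rose from 31.5 ± 1.37 to 62.1 ± 17.6 CPM (0.98, adjusted p = 0.0105), and was not called with ERCC scaling (0.12, adjusted p = 0.866). The importers of iron not bound to transferrin, Slc39a14 (0.62, adjusted p = 0.0187) and Slc39a8 (0.52, adjusted p = 0.0243), rose as well, with signs that turned under ERCC scaling (-0.10 and -0.24). Their calls were lost without SHMT2 fl/fl mouse 1 or 2 and, for Slc39a8, also without SHMT2 fl/fl mouse 3 or SHMT2 HKO mouse 2 (adjusted p up to 0.0852 and 0.0944). Steap2, a metalloreductase, fell (-0.96, adjusted p = 0.0364), and that call was lost without any one of SHMT2 fl/fl mice 1, 2 and 3 or SHMT2 HKO mouse 1 (adjusted p up to 0.114).

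Several other carriers were not called. These were Slc11a2, the divalent metal transporter (0.01, adjusted p = 0.957), Hp, the haptoglobin gene (0.49, adjusted p = 0.287), Hpx, the hemopexin gene (-0.06, adjusted p = 0.868), Steap4 (0.92, adjusted p = 0.0672) and, from the inflammatory list, Lcn2, the siderophore-binding lipocalin (-0.76, adjusted p = 0.36). Hp was at 10128 CPM in SHMT2 HKO mouse 1 against 4219 to 5012 CPM in the other 5 mice. Without that mouse Lcn2 passed (-1.67, adjusted p = 0.00837).

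Of the 22 genes of heme synthesis and breakdown, 12 were called higher and 0 lower, with a median log2 fold change of 0.45. The 54.5% called stands beside 29.0% of all genes called in either direction and 12.5% called higher. Alas1, the rate-limiting enzyme of hepatic heme synthesis, which condenses glycine with succinyl-CoA, was at 503, 624 and 543 CPM in SHMT2 fl/fl and at 1018, 953 and 1263 CPM in SHMT2 HKO mice. Its log2 fold change was 0.95 (SE 0.18, adjusted p = 0.00645). Cpox, a later enzyme of the pathway, rose by more (1.21, adjusted p = 0.00142), and Abcg2, a porphyrin exporter (0.82, adjusted p = 0.00212), and Alas2, the erythroid form of the first enzyme (0.78, adjusted p = 0.0279), rose as well. With ERCC scaling Alas1 (0.33), Cpox (0.54) and Abcg2 (0.09) were no longer called, and Alas1 was not called with library size alone (0.55). The Alas2 call was lost without any one of SHMT2 fl/fl mice 1, 2 and 3 or SHMT2 HKO mouse 2 (adjusted p up to 0.10), and its sign turned under ERCC scaling (-0.08). Fech, which inserts iron (0.35, adjusted p = 0.0668), and Hmox1, the inducible enzyme of heme breakdown (-0.15, adjusted p = 0.637), were not called. The count of 12 higher and 0 lower was 10 and 0 with upper-quartile factors, 2 and 3 with library size alone and 0 and 0 with ERCC scaling. Library size alone and ERCC scaling lowered the median gene too. Without SHMT2 fl/fl mouse 1 or 2 or SHMT2 HKO mouse 2, 6 were called higher.

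In iron-sulfur cluster assembly 9 of 22 genes were called higher and 0 lower (median 0.33). The 40.9% called stands beside 29.0% of all genes called in either direction and 12.5% called higher. Among them were Bola3 (0.81, adjusted p = 0.0157), Glrx5 (0.68, adjusted p = 0.0242) and Bola1 (0.61, adjusted p = 0.0389), which act in the making or handing on of mitochondrial clusters, and the signs of these 3 turned under ERCC scaling (-0.23 to -0.02). The list count was 6 higher and 0 lower with upper-quartile factors, 0 and 1 with library size alone and 0 and 0 with ERCC scaling. It was 0, 1 and 3 higher without SHMT2 fl/fl mouse 1, 2 and 3 and 2 higher without SHMT2 HKO mouse 2, so each single call named here rested on such mice: Bola3 and Glrx5 were lost without any one of these 4 mice, and Bola1 without any one mouse but SHMT2 HKO mouse 3 (adjusted p up to 0.126).

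**Figure D4:**
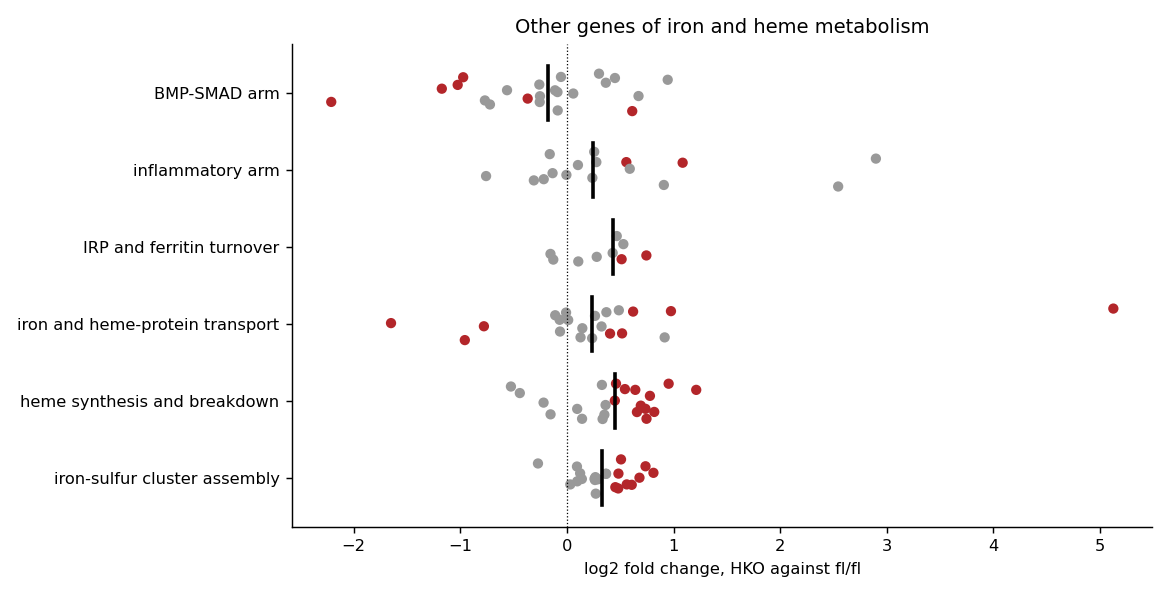
Log2 fold change of each gene tested in 6 lists of iron and heme metabolism (points, red where the adjusted p was under 0.05), with the list median as a black bar and 0 as a dotted line. The medians run from -0.18 in the BMP and SMAD arm to 0.45 in heme synthesis and breakdown, and Cd163 is the point at 5.12.

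Per kilobase of annotated exon, the order of the 10 genes in SHMT2 fl/fl livers was Ftl1, Trf, Hamp, Fth1, Tfr2, Hfe, Hamp2, Slc40a1, Bmp6 and Tfrc. Levels ran from 2405 ± 237 CPM per kb for Ftl1 to 2.43 ± 0.524 CPM per kb for Tfrc (SD, n = 3). Neighbours whose ranges overlapped, and whose order is therefore not resolved, were Trf with Hamp, Hfe with Hamp2, Hamp2 with Slc40a1, and Bmp6 with Tfrc. In SHMT2 HKO livers the means of the first 5 genes kept this order, but the ranges of Trf with Hamp and of Hamp with Fth1 overlapped. There Hamp2 stood sixth with a range of 9.99 to 111 CPM per kb that overlapped those of its neighbours, and Hfe overlapped Slc40a1. Bmp6 (1.6 ± 0.331 CPM per kb) stood last, under Tfrc (3.07 ± 0.526) with no overlap. Exon lengths include every annotated isoform, which lowers the value of genes such as Fth1 with long rare forms.

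The genes that rose and fell most in step with Hamp over the 6 mice, by Pearson r of log2(CPM + 0.5), were Polr2e (0.981), Ddx56 (0.977), Pla2g15 (0.973), Itpa-ps1 (0.973) and Dact2 (0.971). This r compares the shape of the profile and not its level or range. Polr2e ran from 40.3 to 50.7 CPM, where Hamp ran from 161 to 528 CPM. They were read from 16089 genes over 6 mice of 2 genotypes, and are given as a description. Among the 10 genes the highest r with Hamp was that of Hfe (0.68), followed by Ftl1 (0.60) and Hamp2 (0.56), and that of Bmp6 was -0.08.

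Scaling moved all genes together. The median log2 fold change over all genes was lower by 0.42 with library size alone and by 0.72 with ERCC scaling than with TMM, and the split of calls over all genes was 2012 higher and 2651 lower with TMM, 539 and 4923 with library size alone, 1461 and 3039 with upper-quartile factors and 107 and 2759 with ERCC scaling. Relative to the median gene, the difference in Tfr2 was 0.85, 0.88 and 0.75 on the log2 scale with library size, upper-quartile and ERCC scaling, that in Bmp6 was -1.0, -1.0 and -0.94, and that in Trf was 0.54, 0.56 and 0.44. Hamp was -0.14, -0.10 and -0.36 relative to the median gene. The ERCC RNAs made up 1.47, 1.84 and 1.42% of gene and ERCC counts together in SHMT2 fl/fl mice 1, 2 and 3. They made up 2.75, 2.31 and 1.35% in SHMT2 HKO mice 1, 2 and 3. ERCC scaling was thus uneven within the SHMT2 HKO group, with mouse 3 below every control.

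**Figure D5:**
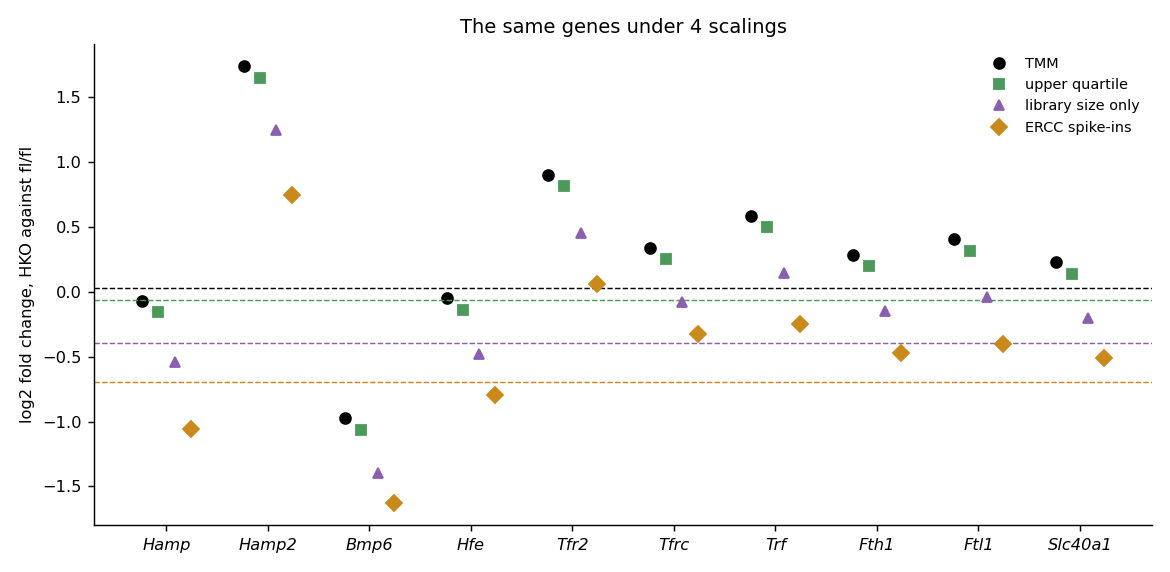
Log2 fold change of the 10 genes under 4 scalings (symbols), with the median of all genes tested under each scaling as a dashed line of the same colour. Each gene shifts down with the median from TMM to ERCC scaling, and Bmp6 lies under and Tfr2 above the median gene under all 4.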

How the data were processed

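The values deposited by the authors are read counts per gene for the 6 livers, not normalized. According to the submitters' processing notes, reads were trimmed with Trimmomatic 0.36, aligned to GRCm38 with STAR 2.5.2b and counted with featureCounts of Subread 1.5.2. The strand setting is not given in the sources used here. The 92 ERCC entries entered neither library sizes nor tests, and 259 gene IDs without annotation held 0.0116% of counts. Genes were filtered with filterByExpr, scaled by TMM and tested for genotype with the quasi-likelihood test of edgeR 4.0.16 in R 4.3.3 (robust, two-sided, all 6 mice, no covariate), and every adjusted p is its Benjamini-Hochberg value over 16089 genes unless another tool is named. Intervals are 95% and come from the same fit. The code was tested on simulated data. Single ratios were compared by exact permutation over 20 assignments. DESeq2 1.42.0, limma-voom (limma 3.58.1), other scalings and filters, a block by replicate number and the omission of each mouse in turn were the alternatives. The named genes are the 10 genes, up to 4 called genes in each direction of each list, and a set of pathway genes given whatever their result. Of the genes this rule names, 1 is not reported here. These genes and lists were chosen with earlier results of these data known. Promoter sequences are from RefSeq (GRCm38.p6) and hairpins from GENCODE M21 (GRCm38).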

Additional observations from a re-analysis of the deposited data

How the results depend on the processing

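Of 70 values recomputed, the direction and the side of the threshold depended most on scaling and on single mice; causes were not tested. With library size alone the all-gene calls were 539 higher and 4923 lower. Calls among the 10 genes were then 0 higher and 2 lower, with Tfr2 at 0.45 and Hfe at -0.48. Higher and lower calls were 0 and 9 in the BMP and SMAD arm, 1 and 1 in the inflammatory arm, 0 and 1 among iron regulatory protein genes, 2 and 3 in heme, and 0 and 1 in iron-sulfur assembly, with 2 higher in transport. Signs turned for Cp (-0.30), Fech (-0.066), Fth1 (-0.15), Ftl1 (-0.038), Il6ra (-0.17), Slc11a2 (-0.40), Slc40a1 (-0.20), Stat3 (-0.17), Tfrc (-0.080) and Txndc5 (-0.19).

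With ERCC scaling 2866 genes were called, 107 of them higher, and 1 of the 10 genes, 0 higher, with Tfr2 at 0.058. The share of ERCC counts was uneven within the SHMT2 HKO group, as given above. Higher calls were 0 in every list but transport, with 1, and the inflammatory arm had 1 lower. Signs turned for Alas2 (-0.081), Bmp2 (-0.0083), Bola1 (-0.23), Bola3 (-0.017), Cp (-0.60), Creb3l3 (-0.15), Fech (-0.35), Fth1 (-0.47), Ftl1 (-0.41), Glrx5 (-0.083), Hfe2 (-0.29), Hp (-0.40), Il6ra (-0.43), Ireb2 (-0.19), Ncoa4 (-0.049), Slc11a2 (-0.67), Slc39a14 (-0.10), Slc39a8 (-0.24), Slc40a1 (-0.51), Stat3 (-0.59), Tfrc (-0.33), Tmprss6 (-0.11), Trf (-0.25) and Txndc5 (-0.49).

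Upper-quartile factors gave 1 higher call among iron regulatory protein genes and 3 in transport, and Slc11a2 at -0.076. DESeq2 called 2 of the 10 genes higher, Trf (0.59) being added, with 3 higher in the BMP and SMAD arm and 5 among iron regulatory protein genes, and had Socs3 at 0.0032. That arm had 2 higher with limma-voom and 2 without a filter beyond 1 count. Slc11a2 was at -0.011 without that filter and at -0.029 with at least 10 counts in every sample, where 1 iron regulatory protein gene was higher.

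The replicate numbers did not pair the mice (r of deviations -0.03, 0.05 and -0.10). With the number as a block, 3584 genes were called and 2 of the 10, with 0 higher in the BMP and SMAD arm, 1 higher and 1 lower in the inflammatory arm and 7 higher in heme. Tmprss6, Alas2, Creb3l3, Slc39a8, Slc11a1 and Bola1 then missed the threshold and Lcn2 and Steap4 passed it.

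Leaving out each mouse gave 2426 to 5597 called genes (805 to 2521 higher, 1621 to 3076 lower) and 0 to 3 of the 10 genes (0 to 2 higher, 0 to 1 lower), with the fewest of the 10 without SHMT2 fl/fl mouse 1 or 2. Log2 fold changes ran from -1.14 to -0.70 for Bmp6, 0.70 to 1.04 for Tfr2, 0.36 to 0.73 for Trf, -0.40 to 0.30 for Hamp, -0.18 to 0.024 for Hfe, -0.33 to 0.043 for Hpx, -0.088 to 0.12 for Slc11a2 and -0.39 to 0.29 for Socs3. Higher calls ran from 0 to 3 in the BMP and SMAD arm (2 to 7 lower), 1 to 2 in the inflammatory arm (0 to 1 lower), 1 to 3 among iron regulatory protein genes, 2 to 6 in transport (1 to 3 lower), 6 to 13 in heme (0 to 1 lower) and 0 to 11 in iron-sulfur assembly. With 3 mice a group, changes such as that of Hamp were not detectable within intervals of about 1 log2 unit, and the intervals rest on the spread between these few mice.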

Other observations

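Further genes of the same lists, chosen here after their values were seen, add to the description. In heme synthesis Urod rose from 54.4, 62.9 and 62.2 CPM in SHMT2 fl/fl to 106, 109 and 84.9 CPM in SHMT2 HKO mice (log2 fold change 0.74, adjusted p = 0.00626), and Alad, which joins the products of the first step, rose as well (0.66, adjusted p = 0.0202). Ppox, another enzyme of the pathway, was not called (0.10, adjusted p = 0.668). Abcb10, a transporter of the mitochondrial inner membrane, rose by a similar amount (0.75, adjusted p = 0.00811). Slc46a1, a carrier of folate and heme, rose (0.64, adjusted p = 0.0181), whereas the heme exporter Flvcr1 was at 4.79, 4.06 and 6.18 against 3.31, 3.29 and 3.86 CPM and was not called (-0.52, adjusted p = 0.118). The rises given here hold for TMM scaling. With ERCC scaling 0 genes of the heme list were called higher, with library size alone 2 were, and with upper-quartile factors 10 were.

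Fgl1, a hepatocyte-secreted protein listed with the BMP and SMAD arm because it can bind BMP6, was at 294, 191 and 206 CPM in SHMT2 fl/fl and at 952, 256 and 123 CPM in SHMT2 HKO mice. The high value was SHMT2 HKO mouse 1, the mouse with the highest Saa1, and the gene was not called (0.95, SE 0.68, adjusted p = 0.340). Epas1, a gene of the iron regulatory protein list that encodes the hypoxia factor HIF2A, was above every control in all 3 SHMT2 HKO mice (184, 244 and 233 against 141, 178 and 171 CPM). It was not called (0.43, adjusted p = 0.0755).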
